A study of Mus musculus with 6 samples.

Results

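The assembled transcript table of this study holds 842 loci that carry no gene name in any of their rows, of 7171 loci in all. They were chosen by that absence alone, and no measured value entered the choice. They account for 1176 of the listed transcripts, against 13937 at the 6329 loci with a name. RNA was sequenced from C17.2 cells, an established line of mouse multipotent neural stem cells (strain CD1 x C57BL/6) that is immortalised and was derived from newborn cerebellum. Control cells were kept in growth medium (DMEM/F12 with 10% fetal bovine serum and an antibiotic and antimycotic mix). Heme-treated cells carry that treatment label, with no dose or time stated in its labels. Neural induction cells were cultured in Knockout DMEM with GlutaMAX, N2 supplement and brain-derived neurotrophic factor at 10 ng per ml. The design has 2 biological replicates in each group, all from this 1 line.

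StringTie assembles aligned reads, spliced or not, into transcripts and gives every assembled locus a number. A reference gene name is attached where a transcript can be tied to an annotated one. Loci left with a number alone are known to be a mixed group in such assemblies: alternative models of known genes, processed pseudogenes (retrotransposed copies of spliced mRNAs), antisense transcripts, fragments of unspliced introns and repeats, and transcripts from unannotated genes. Reads from a single-exon locus cross no splice site, so in a library that does not mark strand its strand cannot be set from them. Some single-exon loci here carry a strand all the same, and how it was set is not given.

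Values are FPKM (fragments scaled by transcript length and sequencing depth), summed over the transcripts of a locus, in control 1, control 2, heme, neural induction 1 and neural induction 2, in that order throughout. The second heme column was the first multiplied by 1.25 to 1.5, row by row, with the same 1150 zeros and 0 zeros found in only one of the columns. These columns were counted as 1 sample, so heme has n = 1 with no replicate. The mapped bases behind the libraries, from coverage over FPKM, ranged from 4.14 to 4.56 gigabases. The control libraries stood further apart than the induction libraries: over named loci the median absolute difference on the log2(FPKM + 1) scale was 0.20 between controls and 0.10 between induction libraries. Of the progenitor markers, 6 of 11 were listed, among them Nes at 75.2 to 93.9 FPKM and Sox2 at 13.6 to 19.8 FPKM, and 2 of 8 neuronal markers were. All 4 mesenchymal markers were listed as well, with Col1a1 at 807 to 1075 FPKM. So was 1 of 5 oligodendrocyte markers, and none of the astrocyte, microglial, endothelial or erythroid markers was. Markers were looked up by gene name among rows chosen by an unknown filter. A marker that is not listed may therefore be expressed.

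Sequences of unnamed loci with the highest levels elsewhere and a listed 0 in heme or control 2 are printed here. Each is the first stretch of up to 240 bases shared by an unnamed locus and an annotated pseudogene exon, read 5′ to 3′ on the pseudogene's strand from GENCODE M21 (GRCm38). Capitals mark bases that differ from the closest protein-coding transcript, and a gene is called a copy of the gene of that transcript. Several genes can share it: Gm3379 and Rpl10-ps5 align as well to Rpl10-ps3 as to Rpl10, AC133523.1 aligns as well to Taf9 as to Ak6, which overlap in the genome, and Gm10095 aligns to the ribosomal protein gene Rpl21 at 98.6% and to a transcript of BC004004 at 99.05%. The Gm3379 stretch covers chr12:109894854-109895093 (minus strand), Rpl10-ps5 chr8:94222993-94223232 (plus), Gm10095 chr12:86845957-86846196 (minus), Gm49739 chr16:42663926-42664135 (plus) and AC133523.1 chr19:3822018-3822257 (minus). Rpl10-ps5 is shown because it is a second unnamed copy of the same ribosomal protein gene as Gm3379.
Gm3379, copy of Rpl10: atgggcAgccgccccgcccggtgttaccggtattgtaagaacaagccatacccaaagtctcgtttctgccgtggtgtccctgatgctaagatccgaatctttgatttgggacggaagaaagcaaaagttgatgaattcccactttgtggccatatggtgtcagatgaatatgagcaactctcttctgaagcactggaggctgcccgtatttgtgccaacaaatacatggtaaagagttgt
Rpl10-ps5, copy of Rpl10: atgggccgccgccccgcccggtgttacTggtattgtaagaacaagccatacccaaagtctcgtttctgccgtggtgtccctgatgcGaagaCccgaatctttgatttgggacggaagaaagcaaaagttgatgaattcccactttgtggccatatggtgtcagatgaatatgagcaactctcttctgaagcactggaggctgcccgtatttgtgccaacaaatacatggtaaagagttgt
Gm10095, closest to BC004004, then Rpl21: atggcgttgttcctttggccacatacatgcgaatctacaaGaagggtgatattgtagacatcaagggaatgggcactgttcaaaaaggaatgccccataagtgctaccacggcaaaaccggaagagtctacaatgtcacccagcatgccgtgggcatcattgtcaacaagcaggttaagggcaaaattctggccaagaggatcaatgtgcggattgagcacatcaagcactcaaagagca
Gm49739, copy of Nop56: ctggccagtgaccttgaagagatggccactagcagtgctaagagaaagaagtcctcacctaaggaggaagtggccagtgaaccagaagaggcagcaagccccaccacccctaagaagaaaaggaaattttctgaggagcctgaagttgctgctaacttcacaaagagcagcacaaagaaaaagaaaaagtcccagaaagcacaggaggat
AC133523.1, closest to Ak6 and Taf9 alike: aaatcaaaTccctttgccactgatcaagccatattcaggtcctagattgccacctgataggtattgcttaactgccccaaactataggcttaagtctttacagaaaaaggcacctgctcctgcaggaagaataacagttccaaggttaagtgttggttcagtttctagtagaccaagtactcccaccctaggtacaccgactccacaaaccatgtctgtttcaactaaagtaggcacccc
Within these stretches Gm3379 has 1 marked base, Rpl10-ps5 has 3, Gm10095 has 1, Gm49739 has 0 and AC133523.1 has 1. Long runs without a capital are runs in which a read from the coding gene and a read from the copy have the same letters, so values at these loci are uncertain: counting could split reads between copies.

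Unnamed loci were lower than named ones, and many were single-exon. Of the 842, 324 (38.5%) had a single exon, against 436 (6.89%) of the named loci, and 255 had no strand, all of them single-exon, against 0 named. The median number of exons in the richest transcript of a locus was 4 against 9, although 103 unnamed loci (12.2%) had 21 exons or more, close to the 11.9% of named loci. The longest transcript had a median length of 1604.5 bases (range 200 to 26237) against 2654, and the genomic span a median of 7236.5 bases (200 to 563580) against 19092. These shorter medians went with the single-exon loci. The 518 unnamed multi-exon loci had medians of 10 exons, 3047.5 bases of longest transcript and 27044 bases of span. Each was above the median of all named loci, which still include the 436 single-exon ones, so the sets are not alike. A single transcript was listed at 641 unnamed loci (76.1%), against 40.5% of named loci. These are descriptions of annotation and assembly, and loci are not replicates, so no test was made over them.

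**Figure D1:**
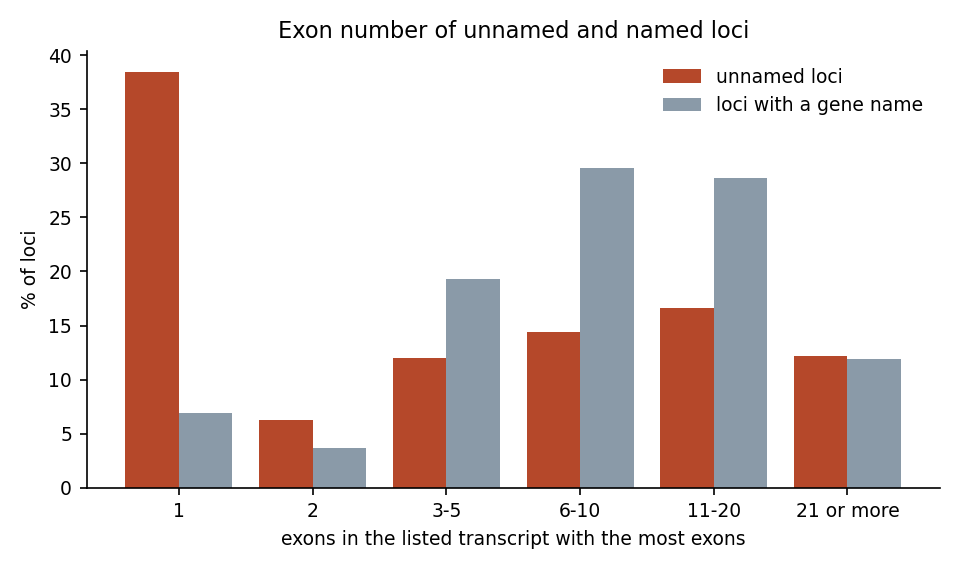
Share of loci (%, vertical axis) by the number of exons in the transcript with the most exons (horizontal axis), for the 842 unnamed loci and the 6329 named loci. Unnamed loci are 38.5% single-exon against 6.89% of named loci, while both kinds have about 12% of loci with 21 exons or more.

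On the chromosomes, unnamed loci were found on every autosome, X and Y. Chromosome 2 held the most, 60. As a share of the listed loci of a chromosome they were highest on chromosome 13 (21.8%, 59 of 271) and chromosome 12 (19.5%, 43 of 221) and lowest, among the autosomes and X, on chromosome 11 (8.28%, 50 of 604). None of the 25 mitochondrial loci was unnamed, and 5 of the 10 loci on Y were. On Y, MSTRG.22522, a single-exon locus, was listed at 11.8, 13.7, 12.1, 12.3 and 10.8 FPKM. A multi-exon locus on an unplaced scaffold, MSTRG.21741 with 7 exons on JH584304.1, was listed at 25.7, 26.6, 22.5, 25.1 and 22.1 FPKM. Both were above 0 in all 5 libraries.

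Mean FPKM over the 5 libraries had a median of 4.80 for unnamed loci (range 0.450 to 3090) against 19.98 for named loci, and 24 unnamed loci reached 100. Unnamed loci held between 4.29% (induction 2) and 6.06% (control 1) of all listed FPKM, but only 3.18% to 3.72% of the listed covered bases. The highest library was control 2 at 253 unnamed loci (30.05%), near the 27.8% of named loci.

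The largest class by position was 483 multi-exon loci (57.4%) that lay over an annotated gene on the same strand. They touched 481 genes, 445 of the loci being over protein-coding genes, and only 3 had a host that is named elsewhere in the table. A locus of this class covered a median of 98.0% of its host's span, and 321 covered 90% or more. At 339 loci a listed transcript began or ended at an annotated end of the host, at 144 neither end was shared, and at 27 one transcript had both ends. The exon number was that of the richest annotated transcript at 150 loci, lower at 256 and higher at 77. The hosts of the remaining loci appear under no symbol of their own in the table.

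Of the 483, 408 were above 0 in all 5 libraries. Unnamed multi-exon loci as a whole had a median SD of log2(FPKM + 1) over the libraries of 0.34, against 0.15 for named loci. Among the best covered, 3 with known roles are given here. Nolc1 (MSTRG.10103), which encodes a nucleolar phosphoprotein, was listed at 70.6, 84.4, 66.8, 77.5 and 71.5 FPKM. Ndufs8 (MSTRG.9575), a core subunit of respiratory complex I, was listed at 61.5, 58.8, 63.2, 63.7 and 63.4 FPKM. Idh3g (MSTRG.22052), a subunit of the mitochondrial isocitrate dehydrogenase of the citric acid cycle, was listed at 48.9, 47.9, 48.9, 47.0 and 51.7 FPKM. None of the 3 passed the test of induction against control. Ndufs8 and Idh3g are nuclear-encoded mitochondrial genes that the table holds under a locus number and not by name.

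Host genes were also sorted into 8 functional groups, drawn up after the host names had been read, so the groups are descriptions. They hold 93 loci, of which 89 were tested in the fit described below, and none passed in either comparison. Of all 7039 loci tested, only 3 passed for heme and 1 for induction, so this is no result about the groups. Kif3b, Nsd1, Sox6 and Ncald were below the level filter of the fit. Respiratory chain and citric acid cycle hosts made 8 loci with a median mean level of 11.9 FPKM, mitochondrial transport and import 9 loci with a median of 4.44. Among the latter, Slc25a37 (MSTRG.6315), mitoferrin, which brings iron into the mitochondrion, was listed at 5.69, 8.91, 5.99, 5.86 and 5.35 FPKM. Tmem14c (MSTRG.5187), a porphyrin transporter of the inner membrane needed for heme synthesis, was listed at 4.09, 4.96, 6.18, 8.11 and 4.39 FPKM. At both, the heme value lay within the range of the other libraries. RNA processing hosts made 16 loci with a median of 17.4 FPKM, led by Nolc1, and Srsf7 (MSTRG.8896), a splicing factor, was listed at 31.2, 39.8, 28.7, 34.8 and 33.4 FPKM. Chromatin regulators made 13 loci with a median of 5.99 and mitosis, replication and DNA repair hosts 13 with a median of 4.51. Numa1 (MSTRG.18879), which organises the spindle poles, was listed at 26.6, 22.7, 25.4, 24.6 and 24.7 FPKM from 7 transcripts. Receptors and their signalling made 11 loci with a median of 7.68, and the receptor tyrosine phosphatase Ptprk (MSTRG.1763) was listed at 51.2, 42.4, 49.7, 44.9 and 46.6 FPKM. Neuronal and synaptic hosts made 12 loci with a median of 3.37. Kinesins, myosins and their adaptors made 11 loci with a median of 8.63. In that group Myo9b (MSTRG.19868), an unconventional myosin picked out after its values were seen, was listed at 2.45, 3.49, 11.5, 14.8 and 10.9 FPKM. Both controls were below the heme and induction libraries, with adjusted p = 0.708 for heme and 0.800 for induction by limma, so it did not pass.

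The longest and richest loci were of the same class. By span they were led by Sox6 (MSTRG.19006, 563580 bases) and Kalrn (MSTRG.7659, 560379 bases). Sox6, a transcription factor of neural and other progenitors, was listed at 2.70, 0.399, 0.0448, 0.453 and 0.138 FPKM and so was mostly a control 1 value. Kalrn, a guanine nucleotide exchange factor of dendritic spines, was listed at 5.53, 4.67, 6.33, 4.93 and 1.27 FPKM, lowest in induction 2. By exons they were Mycbp2 (MSTRG.6456, 83 exons), Herc1 (MSTRG.21129, 76) and Wdfy3 (MSTRG.15702, 65), all low. Mycbp2 and Herc1 encode very large ubiquitin ligases, and Wdfy3 an adaptor of selective autophagy. Their highest libraries reached 3.26, 3.16 and 3.50 FPKM, while Herc1 was listed at 0 in induction 1 and Wdfy3 in control 2 and induction 2. By transcripts they were Ogfr (MSTRG.12005, 14 transcripts), Gm13691 (MSTRG.11104, 13) and Numa1 with 7. Ogfr, the opioid growth factor receptor, was listed at 17.7, 18.04, 20.1, 22.2 and 15.6 FPKM, and the Gm13691 locus at 23.8, 47.3, 24.2, 30.9 and 27.8 FPKM, highest in control 2.

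At 20 multi-exon loci the only annotated overlap was with a gene on the opposite strand. The labels do not say whether the counting used strand, so reads from a gene and its opposite-strand partner could not be told apart. The best covered was MSTRG.17301, opposite the pseudogene Tpt1-ps3, at 131, 131, 128, 114 and 139 FPKM. Opposite the nucleolar helicase gene Ddx21, MSTRG.1968 was listed at 29.6, 33.1, 31.8, 31.5 and 32.9 FPKM, an even profile beside 94.3, 104, 95.5, 100.2 and 96.3 for Ddx21 itself. Opposite the ferritin light chain gene Ftl1, the iron storage subunit, MSTRG.18355 was listed at 5.72, 9.18, 7.79, 41.8 and 6.72 FPKM. Only induction 1 stood apart there, while Ftl1 was listed at 1425, 1973, 1535, 1753 and 1536 FPKM. Opposite Tpt1, MSTRG.6394 was listed at 7.08 FPKM in induction 1 and at 0 in the other libraries. Opposite Col1a1, MSTRG.3655 was listed at 6.32 FPKM in induction 1 and at no more than 0.0678 elsewhere. All 3 of these excesses were in the same library and not in its replicate. The loci opposite Ftl1, Tpt1 and Col1a1 were picked out after their values were seen.

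No GENCODE gene overlapped 194 loci, 15 of them spliced. The nearest gene lay a median of 2625 bases away, within 5 kb at 111 loci and beyond 50 kb at 18, and 70 lay in a gene of the RefSeq table. Of the spliced ones, 2 on opposite strands near Dhx40 on chromosome 11 were the best covered. MSTRG.3579 was listed at 28.1, 40.1, 26.8, 22.4 and 20.3 FPKM and MSTRG.3580 at 20.3, 29.4, 19.2, 14.4 and 17.2 FPKM. In both, control 2 was highest and the induction libraries lowest. Control 2 was also the highest library at 30.05% of unnamed and 27.8% of named loci. Both loci were picked out after their values were seen, and neither difference between control and induction passed the test.

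The 10 unnamed loci with the highest mean FPKM shared one profile. All had a single exon, none lay on a GENCODE exon, and all were close to level in 4 libraries and lower in induction 2. MSTRG.12041, 436 bases on chromosome 3 (5860338 to 5860773) with the nearest gene, Gm37350, 20059 bases away, was listed at 3465, 3438, 3238, 3414 and 1892 FPKM. MSTRG.19547, 353 bases on chromosome 8 (15519774 to 15520126), was listed at 2444, 2369, 2251, 2276 and 1274 FPKM. MSTRG.7780, 672 bases in an intron of Cmss1 on chromosome 16 (57391106 to 57391777), was listed at 1983, 1985, 1866, 2092 and 1150 FPKM. The other 7 were MSTRG.16485 in an intron of Cdk8, MSTRG.17715 in Sspn, MSTRG.5214 in Jarid2, MSTRG.4629 in Gphn, and MSTRG.9450, MSTRG.3977 and MSTRG.7433 outside GENCODE genes, the first in Gm30821 and the second in Gm36876 of the RefSeq table. Their induction 2 values ran from 282 to 479 FPKM and those of their other libraries from 431 to 903. Induction 2 was the lowest library at each of the 10, which restates the profile and adds no support to it. The share of all listed loci with induction 2 lowest was not counted.

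The same profile was then looked for in every unnamed single-exon locus of at least 10 FPKM, with limits chosen after these values were seen: an induction 2 value under 0.65 of the median of the other libraries, whose coefficient of variation was under 15%. Of 116 such loci, 26 met it, with ratios from 0.484 to 0.611 (median 0.559). The last inside, MSTRG.12251, had 0.611, and the first outside, MSTRG.13230, had 0.785, and the remaining loci had a median of 1.04. The 26 lay on 16 chromosomes, were 216 to 823 bases long, had no strand at 23 loci and included 18 of the 22 single-exon loci of at least 100 FPKM. None was on a GENCODE exon, 16 were in GENCODE introns and 10 in no GENCODE gene, of which MSTRG.9450, MSTRG.3977 and MSTRG.1553 lay in a RefSeq gene. Their FPKM summed to 15482, 15436, 14431, 15593 and 8557, and so to 64.2% of all unnamed FPKM in control 1 and 49.998% in induction 2. Induction 1 was level with the controls, so the fall was in 1 library, and its cause was not tested. In bulk RNA, fewer cells of a kind and less RNA per cell cannot be told apart, nor either from a difference between libraries.

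Among 354 named single-exon loci of at least 10 FPKM, 2 met the same limits. Gm23935, a 57-base locus, was listed at 2389, 2489, 2345, 2532 and 1476 FPKM, and Mir6236 at 118, 135, 122, 127 and 72.2 FPKM. Mir6236 is a microRNA entry whose hairpin is known to match large-subunit ribosomal RNA. The named genes of the ribosomal RNA repeat on chromosome 17 did not share the profile. Gm26917 was listed at 94.9, 69.4, 97.7, 104 and 93.2 FPKM and Gm42418 at 36.6, 27.4, 35.3, 33.6 and 27.7 FPKM, with ratios of 0.967 and 0.805 for induction 2. Whether the 26 loci hold ribosomal sequence was not tested, and no genome sequence was used here. Over all named loci of at least 10 FPKM the median ratio was 1.01, and 21 of 4587 met the limits.

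**Figure D2:**
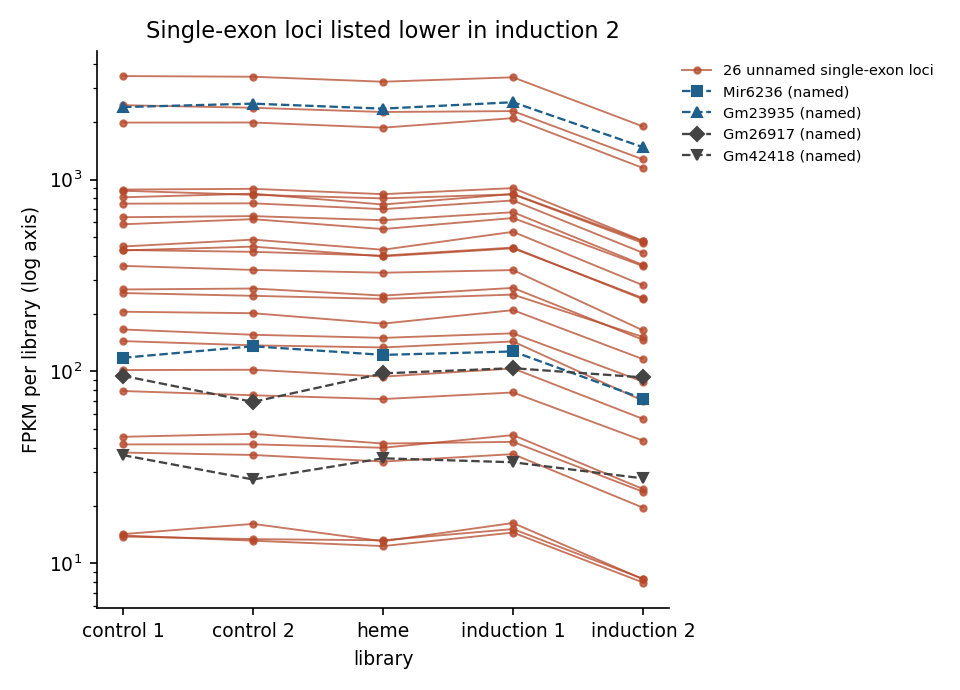
FPKM (vertical log axis) of the 26 unnamed single-exon loci (lines with round points) and of 4 named single-exon loci (dashed) in each of the 5 libraries (horizontal axis). The 26 loci and Mir6236 and Gm23935 are near level in 4 libraries and at 0.484 to 0.611 of the median in induction 2, whereas Gm26917 and Gm42418 are at 0.967 and 0.805.

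Unnamed single-exon loci overlapped annotated exons at 64 sites, and 46 of these annotations were processed pseudogenes, 38 without and 8 with a strand. A protein-coding gene elsewhere aligned to 60 of them, with a median identity of 98.9% (80.4% to 100%), 57 at 95% or more and 30 at 99% or more. The most abundant were copies of cytoskeletal and chaperone genes. MSTRG.5736, on the Tuba1b copy Gm3226 (chromosome 13, 112593575 to 112595178), was listed at 142, 138, 148, 137 and 130 FPKM. MSTRG.1694, on the Hspa8 copy Gm8355, was listed at 114, 150, 115, 112 and 116 FPKM, and MSTRG.20576, on the Tuba1a copy Gm3756, at 106, 107, 111, 107 and 103 FPKM. The listed transcripts of 2 of the 3 coding genes varied more: Tuba1b, an alpha tubulin, summed to 579, 614, 30.4, 590 and 521 FPKM, and Hspa8, the constitutive heat shock cognate, to 88.9, 1099, 847, 84.02 and 76.8 FPKM. Tuba1a summed to 338, 317, 338, 335 and 300.4 FPKM and was about as even as its copy. The table need not list every transcript of a gene, so these sums are of listed transcripts only.

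A value of 0 in 1 library and above 0 in the other 4 was found at 78 unnamed loci (9.26%), against 56 named loci (0.885%) and 1.87% of all loci. By the library at 0, there were 10 for control 1, 20 for control 2, 23 for heme, 14 for induction 1 and 11 for induction 2, and for named loci 9, 17, 9, 12 and 9. Single-exon loci made 45 of the 78, and 38 had no strand. At 60 of them each other library was at 1 FPKM or more, and at 7 each was at 10 or more. A further 71, 53 and 57 unnamed loci were at 0 in 2, 3 and 4 libraries, leaving 583 (69.2%) above 0 throughout against 98.3% of named loci. Read counts are not given in the table, so no upper limit can be attached to a listed 0. The gap in these shares depended on level. With a mean under 1 FPKM the share was 6.02% of unnamed and 10% of named loci. From 1 to 3 FPKM, where 53 of the 78 lie, it was 22.7% and 13.1%, and from 3 to 10 FPKM it was 5.32% and 0.658%. Among loci with a mean of 10 FPKM or more, 6 of 263 unnamed loci and 0 of 4587 named loci were at 0 in only 1 library.

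**Figure D3:**
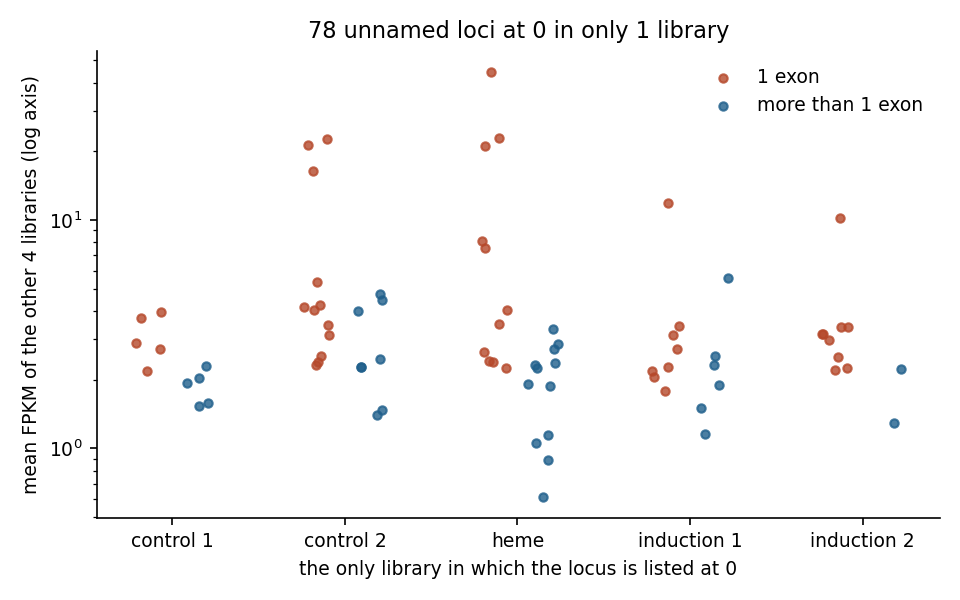
The 78 unnamed loci listed at 0 in only 1 library, by that library (horizontal axis), with the mean FPKM of the other 4 libraries (vertical log axis) and colour for single- or multi-exon loci. The highest points are the 3 heme loci at 21.1 to 44.5 FPKM and 3 control 2 loci at 16.3 to 22.7 FPKM, all single-exon.

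For heme, the 4 highest were 3 pseudogene copies and a locus beside Gm8069. MSTRG.4861 on Gm3379, the copy of the ribosomal protein gene Rpl10 at 99.7% identity (chromosome 12, 109894378 to 109895125), was listed at 44.9, 44.0, 0, 43.3 and 45.8 FPKM. MSTRG.7695 on Gm49739, a copy of Nop56, a core protein of box C/D nucleolar particles, at 100% identity over 209 bases (chromosome 16, 42663917 to 42664160), was listed at 20.3, 22.7, 0, 24.7 and 23.3 FPKM. MSTRG.4724 on Gm10095, closest to a BC004004 transcript and next to Rpl21 (chromosome 12, 86845759 to 86846508), was listed at 21.3, 19.9, 0, 21.3 and 21.9 FPKM. Outside heme the 4 libraries of each lay close together, and only the heme library was at 0. MSTRG.15367, 9 bases from Gm8069, was listed at 8.58, 11.1, 0, 3.72 and 8.98 FPKM. The multi-exon loci at 0 in heme alone numbered 12, among them Insr, the insulin receptor, and Ctbp2, a transcriptional corepressor, each at a mean below 3 FPKM.

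The closest coding genes were not at 0. Rpl10 was listed at 343, 361, 299, 373 and 310 FPKM, Nop56 at 57.8, 69.5, 62.5, 70.8 and 61.5 FPKM, and BC004004 at 21.7, 20.03, 21.8, 23.1 and 21.3 FPKM. Rpl21 was listed at 237, 233, 238, 238 and 234 FPKM, and Rpl10-ps3 at 72.4, 69.4, 68.9, 69.03 and 71.3 FPKM. The other unnamed Rpl10 copy, Rpl10-ps5 (MSTRG.20104), was listed at 33.2, 34.3, 30.3, 34.0 and 33.0 FPKM and so was present in heme. In all, 14 of the 78 loci were single-exon loci on an annotated exon, all 14 had a closest coding gene listed in the table, and identity ran from 97.7% to 100% (median 99.4%). In the library where such a locus was at 0, its closest coding gene stood at 0.849 to 1.79 of the median of the other libraries (median 1.03).

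**Figure D4:**
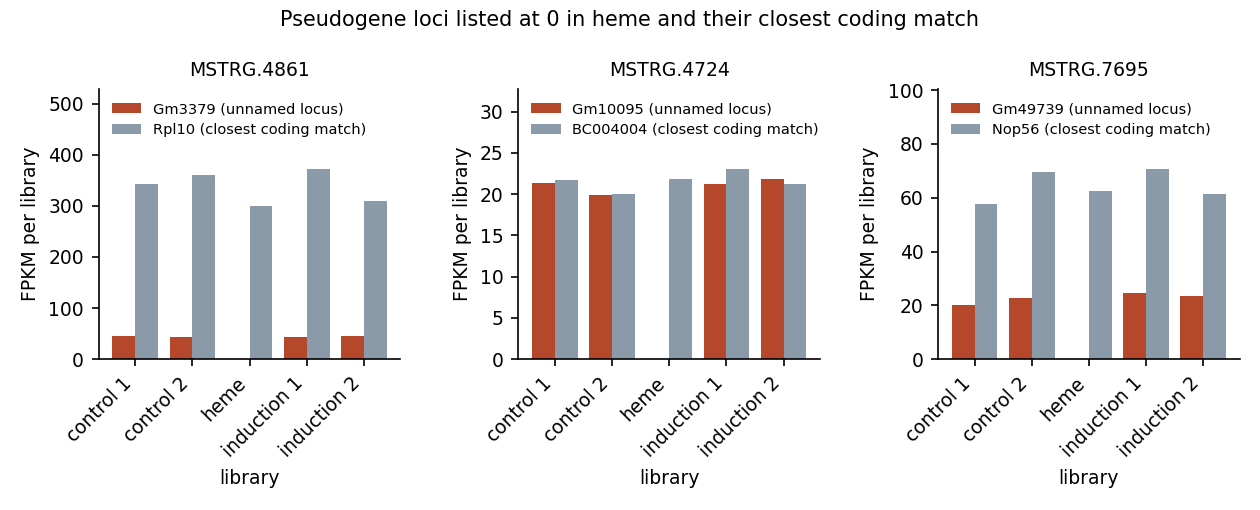
FPKM per library (vertical axes, each from 0) of the 3 pseudogene loci listed at 0 in heme and of the closest coding gene of each, in the 5 libraries (horizontal axes), with 1 value a bar and no error bars. The unnamed loci are at 0 in heme alone, while Rpl10 (299 FPKM), BC004004 (21.8) and Nop56 (62.5) are present there.

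Each of the other libraries had loci of the same kind. For control 2 they were MSTRG.3941, 253 bases in an intron of Tanc2, at 20.3, 0, 20.9, 26.2 and 23.5 FPKM, MSTRG.9572 on AC133523.1, closest to Ak6 and Taf9, at 21.2, 0, 20.5, 20.7 and 22.5, MSTRG.7805 on the copy of cytoplasmic actin Actg1, Gm16385, at 15.3, 0, 16.7, 16.6 and 16.7, and MSTRG.11325 beside Gm13991 at 5.28, 0, 5.62, 4.91 and 5.71. These control 2 zeros are as sharp as those of heme and are not shared by control 1. For induction 1 the highest was MSTRG.20146 on the Rbmxl1 copy Gm7192, at 11.9, 12.02, 11.4, 0 and 11.9 FPKM. It was followed by Mapk9 (MSTRG.2945, 12 exons), the JNK2 kinase gene, at 5.45, 6.55, 6.17, 0 and 4.03 FPKM, by MSTRG.12967 and by MSTRG.20946 on the Tmem230 copy Gm7368. For induction 2 the highest was MSTRG.6550, on the Ahsa1 copy Gm49207, at 9.18, 11.1, 10.4, 10.3 and 0 FPKM. It was followed by MSTRG.6016 on Gm6532, which copies Bnip3, by MSTRG.5561 in Gm29680 and by MSTRG.11127 near Gm1826, none above 5.99 FPKM. For control 1 none exceeded a mean of 3.96 FPKM in the other libraries: MSTRG.21603, MSTRG.9543 on AC116841.1, MSTRG.21922 and MSTRG.299.

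The 4 largest differences within each replicate pair were at short single-exon loci, which does not hold for the typical locus. The median difference between controls was 0.29 over all unnamed loci and 0.32 over the multi-exon ones. Between induction libraries both medians were 0.22. For the control pair the 4 with the largest difference on the log2(FPKM + 1) scale were MSTRG.9572 and MSTRG.3941 above, MSTRG.4401 (202 bases, 109 bases from Gm9370) and MSTRG.10833 (345 bases, 270 bases from Gm13430). MSTRG.4401 was listed at 0, 16.7, 0, 0 and 19.9 FPKM and MSTRG.10833 at 16.5, 0, 0, 0 and 20.3 FPKM, and both were also among the top 4 for the induction pair. The other 2 for induction were MSTRG.7975, in an intron of Rsph3b, at 43.9 FPKM in induction 1 and MSTRG.7991, in an intron of its paralogue Rsph3a, at 34.0 FPKM in induction 1. Both were listed at 0 in the other 4 libraries, including the second induction library.

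The spread over the 5 libraries, as the SD of log2(FPKM + 1), had a median of 0.41 for unnamed and 0.15 for named loci. The difference followed level and exon number. From 10 to 30 FPKM the medians were 0.15 and 0.15, and from 30 to 100 FPKM they were 0.10 and 0.10 (174 and 65 unnamed loci). From 3 to 10 FPKM, unnamed multi-exon loci had a median of 0.30, single-exon loci 0.70 and named loci 0.25. From 1 to 3 FPKM the values were 0.74, 1.03 and 0.68. At 100 FPKM or more, unnamed loci had 0.37 against 0.08, and 18 of the 24 there were among the loci lower in induction 2.

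**Figure D5:**
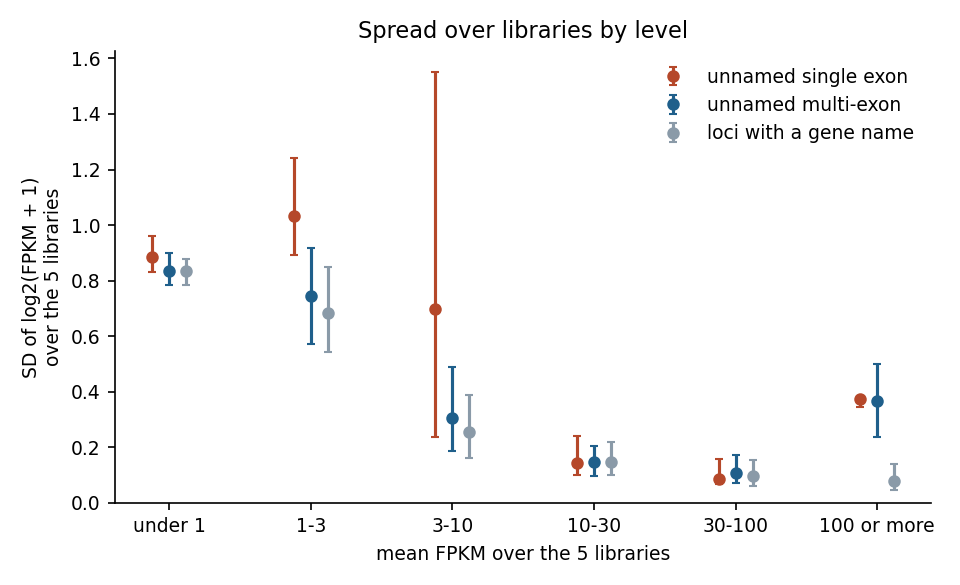
SD of log2(FPKM + 1) over the 5 libraries (vertical axis) by mean FPKM (horizontal axis), as the median (points) and quartiles (bars) over unnamed single-exon, unnamed multi-exon and named loci. The 3 kinds lie together from 10 to 100 FPKM, single-exon loci lie higher from 1 to 10 FPKM, and unnamed loci lie higher at 100 FPKM or more, where the multi-exon point is 2 loci.

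For heme against control, 3 of the 766 unnamed loci tested (1 FPKM or more in at least 2 libraries, 76 unnamed loci left out) passed an adjusted p of 0.05 by limma with Benjamini-Hochberg adjustment over 7039 loci. All 3 were lower and none was higher, and 0.0426% of all tested loci were called lower and 0% higher. They were the 3 pseudogene loci at 0 in heme, MSTRG.4861 (adjusted p = 0.00313), MSTRG.4724 and MSTRG.7695 (adjusted p = 0.0106 each). On the log2(FPKM + 1) scale the fitted differences were -5.51 ± 0.125 (SE), -4.43 ± 0.166 and -4.49 ± 0.172. Such a difference against a listed 0 depends on the pseudocount and is neither a fold nor a bound: with 0.1 FPKM they were -8.80, -7.69 and -7.75. A 0 in heme adds nothing to the spread in the test, because that group has no second library. A 0 in control 2 alone, as at MSTRG.9572 and MSTRG.3941, widens that spread, and neither locus passed in either comparison. The test thus treats the same drop differently in heme and in the other libraries. Heme is 1 library, so the spread in the test comes from the controls and inductions, and with any 1 of these 4 libraries left out no unnamed locus passed (adjusted p from 0.0994 to 0.520, 1 residual degree of freedom instead of 2). At an unadjusted p of 0.05, 42 unnamed loci (5.48%) passed against 3.59% of all tested loci, and the median difference was -0.03 against -0.00353.

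For neural induction against control, no unnamed locus passed by limma, and 29 had an unadjusted p under 0.05 (3.79%, against 3.05% of all tested loci). Across all loci 0.0142% were called lower and 0% higher. The lowest adjusted p of an unnamed locus was 0.800. The median difference was -0.01 for unnamed loci and 0.02 for all. The 26 single-exon loci lower in induction 2 were not among the called loci, and induction 1 was level with the controls at them.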

How the data were processed

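Per the submitters' processing notes, the reads were processed with HISAT2, StringTie and edgeR on GRCm38 (mm10), with no versions given. The deposited table gives FPKM and a coverage signal for each assembled transcript in 6 columns, both made by the authors. The filter that chose the listed transcripts is not given in the sources used here. FPKM were summed per locus. Mapped bases were taken as coverage divided by FPKM, so depth is known as bases and not as reads. Loci were placed against GENCODE M21 (10897 of 10948 Ensembl transcripts of the table were found there, 9536 with the same ends) and a RefSeq gene table, and pseudogene exons were aligned to protein-coding transcripts with blastn 2.17.0. Both comparisons used limma 3.58.1 with trend, in R 4.3.3, on log2(FPKM + 1), 5 libraries, 3 groups and no block, for loci of at least 1 FPKM in 2 libraries, with Benjamini-Hochberg adjustment and a threshold of 0.05. The fit was tested on simulated data. Python 3.11.15, pandas 2.3.3, numpy 2.4.6 and matplotlib 3.10.9 did the rest.

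The members, lists and tests were chosen with earlier results of these data known. Loci are named by rule: the 10 with the highest mean FPKM; up to 4 per library of those at 0 there alone; those called; the 3 longest, richest in exons and richest in transcripts; and the 4 with the largest difference in each replicate pair. Other loci named were chosen after their values were seen. Some results the rule selects are not reported here. P-values set a difference against the spread between these samples, and for heme that spread comes from the control and induction libraries only. Alternatives were a pseudocount of 0.1, no filter, all 6 columns, a replicate block, median centring and leaving out each library.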

Additional observations from a re-analysis of the deposited data

How the results depend on the processing

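With a pseudocount of 0.1, no filter, median centring or a replicate block, the same 3 unnamed loci passed for heme and 0 for induction by limma. Leaving out 1 library at a time gave 0 unnamed loci for heme and 0 for induction in each fit, with 1 residual degree of freedom except where the heme library was left out. Heme against control cannot be fitted without the heme library. Treating all 6 columns as separate samples takes the rescaled heme column as a replicate. For heme this gave 60 of 779 unnamed loci tested (35 higher, 25 lower, with the 3 among them), beside 207 of all 7063 loci tested. For induction it gave 22 of 779 unnamed loci, beside 51 of all 7063. The correlation of deviations between same-numbered controls and inductions was -0.05 over 7039 loci. It rests on a single difference within each group, so it cannot decide whether the replicate numbers pair the samples. With the replicate block, 3 unnamed loci passed for heme and 0 for induction. Counting values under 0.1 FPKM as 0 gave 84 unnamed loci in place of 78 at 0 in only 1 library. The median spread of unnamed loci was 0.41 on the log2 scale, 0.48 with a pseudocount of 0.1 (0.16 for named loci) and 0.36 for loci of a mean of at least 1 FPKM. Heme has 1 distinct library, and which filter chose the table's rows is not known. No read counts are given, and near-identical copies could share reads, which was not tested. A listed 0 therefore limits no expression level.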
